A study of Rattus norvegicus with 12 samples.

Results

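The genes that carry the growth hormone signal from the liver cell surface to STAT5, with those that damp it, are described here in rat liver. They were the receptor gene Ghr, the kinase gene Jak2, the transcription factor genes Stat5a and Stat5b, and the feedback genes Cish, Socs1, Socs2 and Socs3. These 8 genes were taken by symbol from the 16478 genes of the count files, with no threshold on a measured value. Earlier results of these data were known when they were chosen. Each of the 12 libraries came from the liver of 1 rat of the ZSF1 strain, with 6 female and 6 male animals. All were obese, 16 weeks old and without treatment, and no lean or treated group enters the comparison. Obese ZSF1 rats carry defective leptin receptor alleles from both parents and serve as a model of obesity with metabolic disease. The labels give no batch, litter, pairing, hour of collection or hormone level. The males carry the numbers 1 to 6 and the females the numbers 7 to 13 without 11, so any batch that followed the numbers cannot be told apart from sex.

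Growth hormone, a pituitary hormone, binds its receptor on hepatocytes and activates the kinase JAK2 held on the receptor's inner side. JAK2 phosphorylates the receptor and STAT5, and phosphorylated STAT5 pairs up, enters the nucleus and binds DNA. CIS, the product of Cish, and the SOCS proteins are made in response to such signals and act back on the receptor or the kinase. In rats the hormone reaches the liver in pulses in males and more evenly in females, and the sex differences of liver metabolism depend on that pattern. None of the values below measures the hormone, the proteins or their phosphorylation.

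Cish is an established STAT5 target, and its promoter is shown because Cish varied more among male animals than nearly every other gene. In the RefSeq table of assembly GRCr8 the 250 bases before its start lie on the plus strand at chr8:116850719-116850968. Capitals mark each match to TTCNNNGAA, the palindrome that STAT5 proteins bind, which reads the same on both strands.
Cish: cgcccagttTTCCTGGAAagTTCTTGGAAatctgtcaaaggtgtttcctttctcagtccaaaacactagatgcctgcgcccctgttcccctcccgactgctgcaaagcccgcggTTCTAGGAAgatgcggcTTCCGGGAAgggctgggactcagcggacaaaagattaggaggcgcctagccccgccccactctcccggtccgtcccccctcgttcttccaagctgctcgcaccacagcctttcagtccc
The 4 matches begin 241, 230, 136 and 119 bases before the start and stand as 2 close pairs. Windows of 300 bases, from 250 before to 50 after the start, were searched for 7 of the 8 genes. The window of Socs1 held 1 match, TTCAGGGAA, at 196 bases before the start, and those of Ghr, Jak2, Stat5a, Stat5b and Socs3 held none. The same windows of Igf1, Igfals and Bcl6, described below as genes that answer to STAT5, also held none. Among all 33469 promoters of that table, 8.87% held at least 1 match, and 2 promoters (0.00598%) held at least 4. A match describes the letters only and is no evidence of binding in these livers.

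The female libraries held 6763879 to 24837602 counts in genes and the male libraries 11381428 to 29232871. Levels are given as CPM, counts relative to the library total on a common scale, after the TMM scaling of edgeR, and 3 counts corresponded to 0.105 to 0.415 CPM. Hepatocyte markers were abundant in every library, at 207567 to 323759 CPM summed over 8 genes, of which 1 was higher in females and 3 in males. Other lists held 5.41 to 13.6 CPM of bile duct markers (0 of 3 called), 139 to 257 of stellate cell markers (Reln higher in females, Dcn in males, of 7), 2.21 to 7.89 of adipocyte markers and 8.79 to 41.2 of pancreas markers. Of the adipocyte markers Lep was at 0 in all libraries, and Cfd, the 1 tested, was 1.94-fold higher in females (edgeR adjusted p = 0.00125). Of the pancreas markers Prss1 and Prss2 were at 0, Cpa1 was 524-fold higher in females and Cela1 4.17-fold higher in males (edgeR adjusted p = 7.90e-06 and 1.10e-08). The male mean of Cpa1, at 0.0314 CPM, lay below the level of 3 counts, so the size of its fold is uncertain. Male 4 stood apart from the other 11 libraries, with 39.4 CPM of neutrophil markers against at most 5.06, 57.4 of lymphocyte markers against at most 25.7, and 445 of macrophage markers against at most 323. Of 9943 genes tested 43.2% were called at an adjusted p under 0.05 (edgeR quasi-likelihood test, Benjamini-Hochberg), 20.5% higher in females and 22.7% higher in males. For 22.8% of genes the 6 female and the 6 male values did not overlap.

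The kinase and STAT5 genes were higher in females, the receptor gene was not called, and the feedback genes ranged widely among males at means that were not called. Of the 7 genes that passed the filter on low counts, Jak2, Stat5a and Stat5b were higher in females, at 1.25-fold, 1.66-fold and 1.58-fold. No gene of the 7 was called higher in males. Ghr, Cish, Socs2 and Socs3 did not pass the test. The 2 STAT5 genes showed no overlap between the sexes, and the other 5 did overlap. Over all genes tested, 22.8% showed no overlap.

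**Figure D1:**
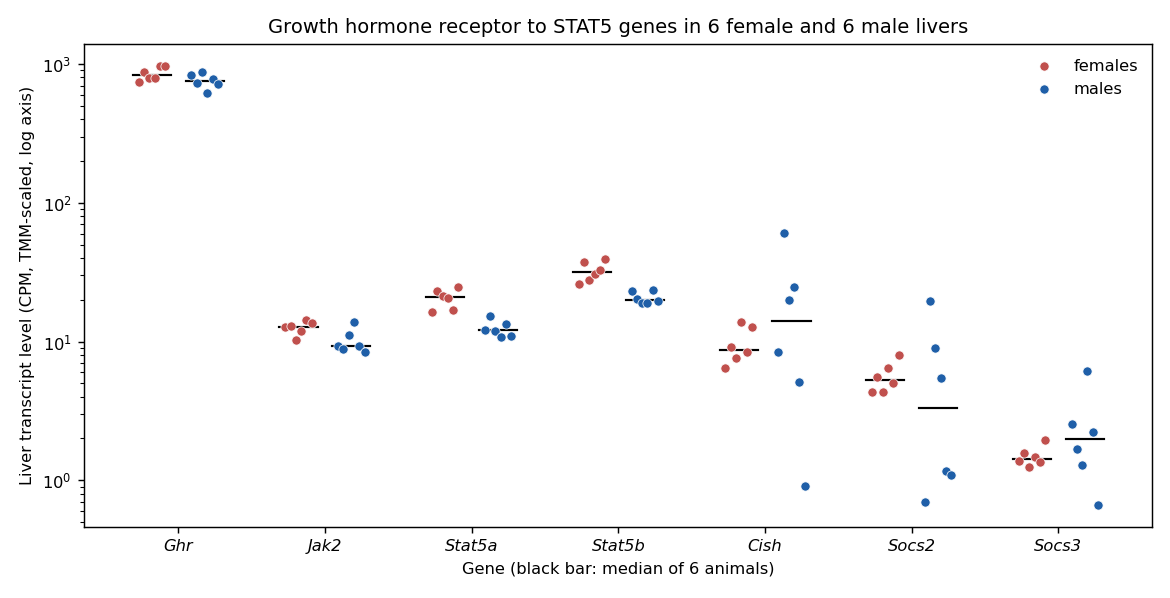
Level of each tested gene of the axis in every liver, in CPM on a log axis, with 1 point per animal (red females, blue males) and a black bar at the median of 6. The Stat5a and Stat5b points of the sexes do not overlap, and the male points of Cish run from 0.910 to 60.9 CPM around female points between 6.42 and 13.9.

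Ghr encodes the growth hormone receptor. Its levels were 740, 879, 795, 789, 969 and 964 CPM in females 7, 8, 9, 10, 12 and 13, and 834, 733, 882, 614, 786 and 722 CPM in males 1 to 6. The sexes overlapped over most of their range, with male 4 lowest of all. The means were 856 ± 96.5 CPM in females and 762 ± 94.4 in males (SD, n = 6 each), a log2 difference of 0.17 (SE 0.097) that did not pass the test (edgeR adjusted p = 0.175). Libraries of bulk tissue cannot tell fewer cells of a type apart from less RNA per cell, here or in the results that follow.

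Jak2 encodes the kinase that the receptor activates. It stood at 12.6, 12.9, 10.2, 11.8, 14.4 and 13.7 CPM in females 7, 8, 9, 10, 12 and 13, and at 9.25, 8.85, 11.2, 13.9, 9.26 and 8.40 CPM in males 1 to 6. Males 3 and 4 lay within the female range and the other 4 males below it. The means were 12.6 ± 1.44 and 10.1 ± 2.08 CPM (SD, n = 6 each), and the log2 difference of 0.32 (SE 0.123) just passed the threshold (edgeR adjusted p = 0.0467). Leaving out a single animal ended the call for females 7, 8, 10, 12 and 13 and for males 1, 2, 5 and 6 (adjusted p up to 0.103). Without male 4, the highest male, the difference was 0.45 (edgeR adjusted p = 0.00149).

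Stat5a and Stat5b encode the related pair of transcription factors through which the receptor acts, Stat5b being the main form in liver. Stat5a stood at 16.3, 23.2, 21.2, 20.6, 16.9 and 24.7 CPM in females 7, 8, 9, 10, 12 and 13, and at 12.0, 15.3, 12.0, 10.8, 13.4 and 11.0 CPM in males 1 to 6. The lowest female, at 16.3 CPM, was above the highest male, at 15.3. The means were 20.5 ± 3.35 and 12.4 ± 1.69 CPM (SD, n = 6 each), a log2 difference of 0.73 (SE 0.115, edgeR adjusted p = 1.61e-04).

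Stat5b stood at 26.2, 37.5, 27.7, 30.4, 32.6 and 39.6 CPM in females 7, 8, 9, 10, 12 and 13, and at 23.0, 20.2, 18.9, 18.9, 23.6 and 19.5 CPM in males 1 to 6. Every female was again above every male, and females 8 and 13 were the 2 highest for both genes. The means were 32.3 ± 5.34 and 20.7 ± 2.08 CPM (SD, n = 6 each), a log2 difference of 0.66 (SE 0.103, edgeR adjusted p = 1.60e-04). The log2 ratio of Stat5b to Stat5a differed between the sexes by -0.08, females minus males (2-sided exact permutation p = 0.504, 0.779 adjusted over 4 ratios). Both differences kept their direction and their call in all 21 alternative settings, at 0.67 to 0.80 for Stat5a and 0.60 to 0.71 for Stat5b. The coding sequences of the pair are closely related. How reads fitting both were counted is not given in the sources used here, and the split between them is uncertain. Markers of sinusoidal endothelial cells differed between the sexes in the same direction as the STAT5 genes, with 3 of 4 higher in females. Their sums were 76.0 to 94.4 CPM in females and 28.1 to 75.9 in males. Among the 10 macrophage markers, 2 were called higher in females and 8 were not called. Over all genes tested, 20.5% were called higher in females. The called genes of both lists were Lyve1, Flt4, Fcgr2b, Clec4f and Cd163, at 1.56-fold to 2.74-fold. Their covariation with the STAT5 genes within a sex was not computed, and their part in the STAT5 difference was not tested.

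**Figure D2:**
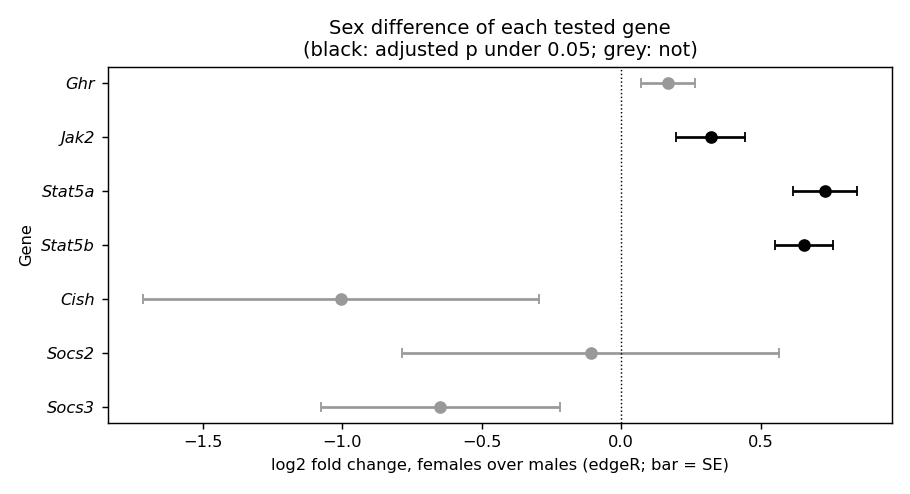
Log2 fold change of females over males for the 7 tested genes, with bars of 1 standard error from edgeR (black, adjusted p under 0.05; grey, not). Jak2, Stat5a and Stat5b lie above 0 with bars of 0.103 to 0.123, while the bars of Cish, Socs2 and Socs3 are 0.709, 0.675 and 0.428.

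Cish, whose product blocks STAT5 docking on the receptor, showed a narrower range in females than in males. It stood at 6.42, 9.15, 7.62, 13.9, 8.34 and 12.8 CPM in females 7, 8, 9, 10, 12 and 13, and at 8.38, 60.9, 19.8, 24.7, 5.07 and 0.910 CPM in males 1 to 6. Males 2, 3 and 4 were above every female, males 5 and 6 below every female, and male 1 among them. Male 2 was 67.0-fold above male 6 (1115 against 26 counts, 95% exact interval 45.4 to 103), whereas female 10 was 2.17-fold above female 7 (1.66 to 2.88). These intervals cover counting error only. The means, 9.714 ± 2.996 and 19.96 ± 22.0 CPM (SD, n = 6 each), did not differ by the test (log2 difference -1.002, SE 0.709, edgeR adjusted p = 0.281). Without male 2 the log2 difference was -0.23, and limma-voom put it at 0.14 (adjusted p = 0.918). Male 2 also had the highest sum of 11 immediate early genes, at 469 CPM, followed by male 4 at 361 and the other 10 livers at 140 to 266, and the part of that response in the Cish levels was not tested.

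Socs2, the product of which restrains growth hormone signalling in the liver, also had a narrower range in females than in males. It stood at 4.34, 5.52, 4.29, 6.47, 5.04 and 7.99 CPM in females 7, 8, 9, 10, 12 and 13, and at 0.698, 19.5, 8.91, 5.43, 1.16 and 1.08 CPM in males 1 to 6. Males 1, 5 and 6 were below every female, males 2 and 3 above, and male 4 among them. Male 2 was 27.8-fold above male 1, which had 8 counts (95% exact interval 14.0 to 65.0), against a 1.86-fold range in females. The mean difference did not pass the test (log2 -0.11, SE 0.675, edgeR adjusted p = 0.915), and its sign turned without male 2 (0.72) or male 3 (0.02).

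Socs3 encodes a suppressor that is also induced by interleukin-6 through STAT3. It stood at 1.38, 1.58, 1.25, 1.46, 1.35 and 1.95 CPM in females 7, 8, 9, 10, 12 and 13, and at 2.53, 1.69, 1.29, 6.14, 2.24 and 0.665 CPM in males 1 to 6. Male 4 stood alone at the top and male 6 at the bottom, and the other 4 males ran from within the female range to just above it. The log2 difference was -0.65 (SE 0.428, edgeR adjusted p = 0.241), and -0.02 without male 4. Beside its Socs3 level, male 4 had the highest sum of 16 interleukin-6 and acute phase genes, at 79146 CPM against 23799 to 38472 in the other 11 livers, and the highest neutrophil, lymphocyte and macrophage marker sums given above. Their part in the Socs3 level was not tested.

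Socs1, a suppressor induced mainly by interferons, was at the limit of detection and was not tested. It had 10 counts over the 6 female libraries and 11 over the 6 male libraries, or 0.105 and 0.102 CPM of the pooled library totals without TMM scaling, with at least 1 count in 4 of 6 libraries of each sex. A difference between the sexes was not detectable at this depth.

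The spread among animals was compared next, as the mean absolute deviation of log2 CPM (prior count 2) from the median of the own sex. Over all genes tested, 3.59% were wider in males at an exact p under 0.05, against 3 of the 7 genes of the axis, all 3 from the feedback arm. For Cish the SD of log2 CPM was 0.43 in females and 2.06 in males, and the deviation was 1.23 larger in males (2-sided exact permutation p = 0.00649, 0.571 adjusted over all genes). For Socs2 the SDs were 0.34 and 1.86 and the deviation was 1.34 larger (exact permutation p = 0.00216, the smallest that 6 against 6 allows, 0.283 adjusted). For Socs3 they were 0.21 and 1.00, with 0.57 larger (exact permutation p = 0.0281, 0.845 adjusted). None of the 3 passed the correction over all genes. Cish and Socs2 ranked 2 and 3 of the 9943 genes by their SD among males, and Socs3 ranked 64. By their SD among females the ranks of Cish, Socs2 and Socs3 were 780, 1438 and 3543. Only 7.84% of genes had a female SD at least as large as that of Cish, and 14.5% for Socs2.

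The receptor, kinase and STAT5 genes had SDs closer to the middle of all genes. Ghr had a female SD of 0.16 and a male SD of 0.18 (exact permutation p = 0.976), Jak2 0.17 and 0.27 (0.652), Stat5a 0.24 and 0.19 (0.506) and Stat5b 0.24 and 0.14 (0.195). The medians over all genes were 0.16 and 0.19. The p of Cish rose above 0.05 without male 1, 5 or 6 (0.0649 to 0.0952) and that of Socs2 without male 2, 3 or 4 (0.121 to 0.132), whereas that of Socs3 was lost in 11 of 15 alternatives. Among the 10 genes with the widest SD in males, male 4 held the highest value for Lcn2, Mt2A, Cxcl1, Mt1a, Kng1l1 and S100a9. Male 2 held it for Cish, Socs2 and Gadd45g, a stress-inducible gene at 4.41 to 99.5 CPM in males, and male 3 for Onecut1.

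**Figure D3:**
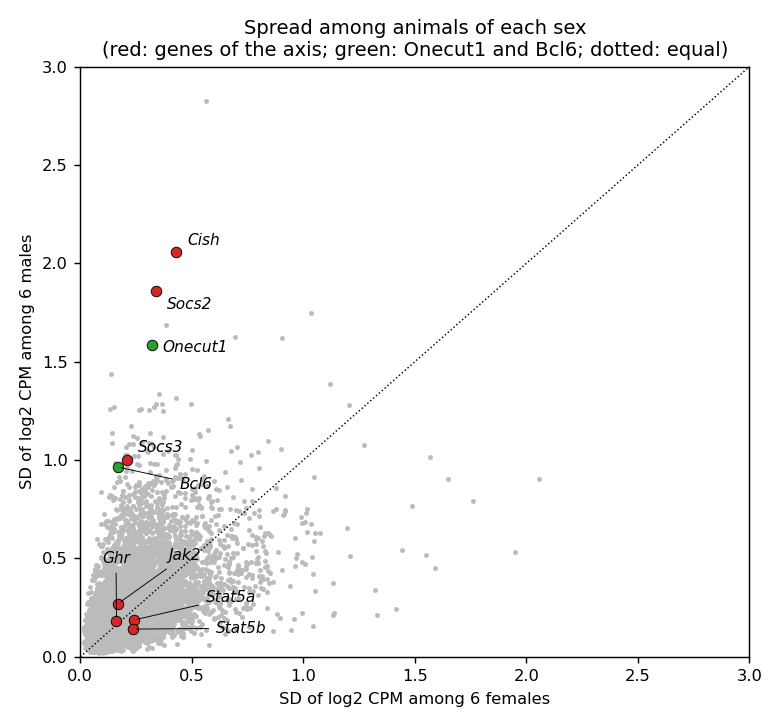
SD of log2 CPM among the 6 females (horizontal) and among the 6 males (vertical) for each of the 9943 genes tested (grey), with the genes of the axis in red and Onecut1 and Bcl6 in green. Cish (0.43 and 2.06) and Socs2 (0.34 and 1.86) lie far above the dotted line of equal spread, while Ghr, Jak2, Stat5a and Stat5b lie near it.

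Of 4 genes that answer to STAT5 in liver, Igf1 and Igfals had SDs of log2 CPM of 0.15 and 0.26 among males, and Onecut1 and Bcl6 of 1.59 and 0.96. Igf1, the main growth-promoting output of the hormone, had a female mean of 434 ± 64.7 CPM and a male mean of 379 ± 40.04 (SD, n = 6 each; log2 0.20, edgeR adjusted p = 0.136), and was called without female 12 (adjusted p = 0.0248). Igfals, which encodes the partner that holds IGF1 in the circulation, stood at 306 and 290 CPM (log2 0.08, edgeR adjusted p = 0.618). Across the males, where Cish spanned 67.0-fold, Igf1 spanned 1.28-fold and Igfals 1.53-fold.

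Onecut1, which encodes the hepatic factor HNF6, was variable in males. It stood at 42.3, 58.7, 44.0, 67.8, 39.6 and 59.9 CPM in females 7, 8, 9, 10, 12 and 13, and at 4.80, 27.2, 33.8, 12.8, 3.40 and 2.34 CPM in males 1 to 6. All males were below all females, by 3.71-fold in the means (log2 1.89, SE 0.572, edgeR adjusted p = 0.0191), and males 1, 5 and 6 were again the 3 lowest. The SDs of its log2 CPM were 0.32 and 1.59, wider in males (exact permutation p = 0.00216, 0.283 adjusted over all genes).

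Bcl6 encodes a repressor that opposes STAT5 at shared sites. It stood at 19.8, 20.5, 18.1, 20.8, 25.9 and 20.6 CPM in females 7, 8, 9, 10, 12 and 13, and at 17.5, 24.3, 16.2, 12.8, 48.3 and 70.1 CPM in males 1 to 6. Males 5 and 6, the 2 lowest for Cish, were the 2 highest for Bcl6, and male 2, the highest for Cish, was the next. The sexes overlapped (log2 -0.60, SE 0.393, edgeR adjusted p = 0.244), and the SDs were 0.17 and 0.96 (exact permutation p = 0.00866, 0.582 adjusted over all genes).

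Covariation of the genes was taken within each sex over its 6 animals, from log2 CPM. A pair was left out where the values of 1 gene fell into separate clusters, as Stat5b did in males and Onecut1 in females. Among the 36 remaining pairs of axis genes r was above 0 for 20 of 21 pairs in females (median 0.63) and 9 of 15 in males (median 0.27). Exact permutation p was under 0.05 for 3 pairs in females and 1 in males, and for none after adjustment over the 36 (smallest 0.300). Whether r differed between the sexes was not tested. In females the Socs2 level rose in the same order as library depth, through females 9, 7, 12, 8, 10 and 13. Cish kept that order except that females 7 and 9, and females 10 and 13, changed places. For Socs3, female 9 was lowest and female 13 highest. The part of depth in the r of females was not tested.

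Cish and Socs2 had the highest r of the axis pairs in each sex. In males r was 0.82 (exact permutation p = 0.0403, adjusted 0.362) and Spearman's rho 0.77 (exact permutation p = 0.103, adjusted 0.529). Without males 2 and 6, the 2 farthest from the Cish median, r was 0.86. In females r was 0.91 (exact permutation p = 0.0167, adjusted 0.300) and rho 0.89 (exact permutation p = 0.0333, adjusted 0.529), with r at 0.87 without females 10 and 13. The male Socs2 values lay in a low set of 3 animals and a high set of 3, with a gap of 46.3% of their log2 range, and sets of 3 are too small for an r of their own. Over all genes 4.37% reached an exact p under 0.05 with Cish in males and 4.76% in females, and with Socs2 2.86% and 6.35%.

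The other pairs of axis genes with a p under 0.05 were in females. Socs2 with Socs3 gave r = 0.89 (exact permutation p = 0.0153, adjusted 0.300; rho 0.89, exact p = 0.0333, adjusted 0.529; 0.82 without females 10 and 13). In males the same pair gave 0.10. Stat5b with Socs3 gave r = 0.83 (exact permutation p = 0.0292, adjusted 0.350; rho 0.71, exact p = 0.136, adjusted 0.573; 0.85 without females 7 and 13). For the receptor gene Ghr with Cish, r was 0.36 in females (exact permutation p = 0.458, adjusted 0.593; rho 0.26, exact p = 0.658, adjusted 0.912) and -0.08 in males (exact permutation p = 0.904, adjusted 0.904; rho -0.09, exact p = 0.919, adjusted 0.946). Without the 2 animals farthest from the Ghr median these were 0.32 and 0.08.

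Against the STAT5 outputs, 45 pairs were computed and none passed adjustment (smallest 0.479). In males Cish with Onecut1 gave r = 0.88 (exact permutation p = 0.0208, adjusted 0.479; rho 0.83, exact p = 0.0583, adjusted 0.438; 0.86 without males 2 and 6). Socs2 with Onecut1 gave r = 0.92 (exact permutation p = 0.0319, adjusted 0.479; rho 0.77, exact p = 0.103, adjusted 0.544; 0.82 without males 2 and 3). Cish and Bcl6 gave -0.77 in males (exact permutation p = 0.0681, adjusted 0.523; rho -0.66, exact p = 0.175, adjusted 0.544; -0.87 without males 2 and 6). In females Cish with Igfals gave r = 0.87 (exact permutation p = 0.0264, adjusted 0.479; rho 0.83, exact p = 0.0583, adjusted 0.438). That r was 0.45 over the 4 animals left without females 10 and 13, and 0.76 to 0.95 without any single female. With Igf1, Cish gave 0.61 in females (exact permutation p = 0.2, adjusted 0.529; rho 0.71, exact p = 0.136, adjusted 0.544; 0.10 without females 10 and 13) and 0.23 in males (exact permutation p = 0.661, adjusted 0.930; rho 0.20, exact p = 0.714, adjusted 0.892; 0.21 without males 2 and 6).

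**Figure D4:**
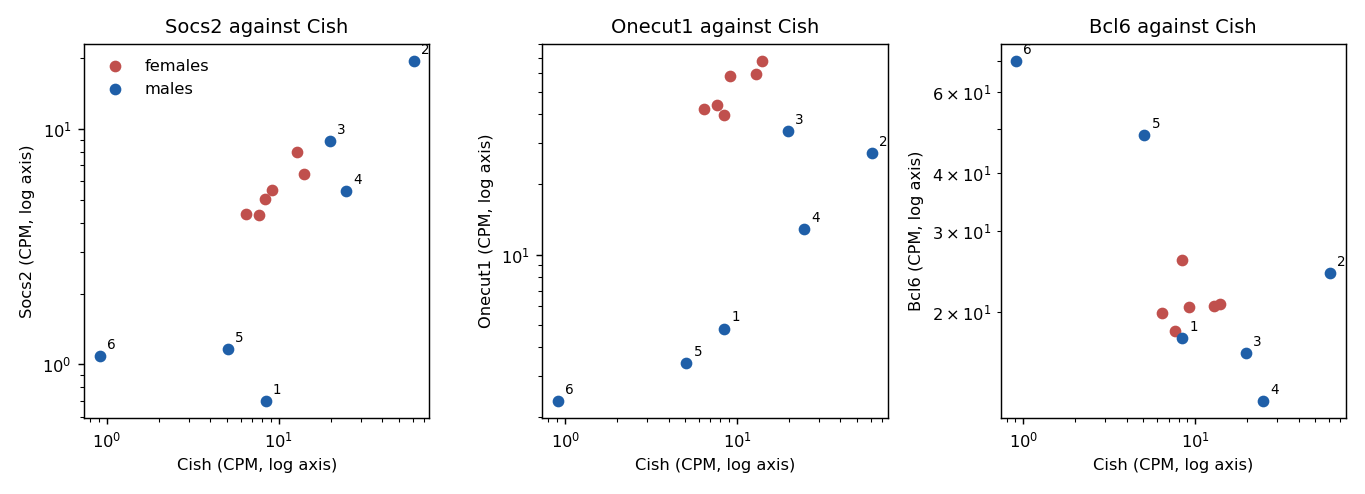
Level of Socs2, Onecut1 and Bcl6 against Cish in each liver, in CPM on log axes (red females; blue males with their numbers). Males 1, 5 and 6 lie low for Socs2 and Onecut1, males 5 and 6 lie high for Bcl6 at 48.3 and 70.1 CPM, and the females form a compact group.

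The genes whose pattern was most like that of an axis gene were found by Pearson's r over the 12 animals after the mean of each sex was taken off, among 7543 genes with a mean of at least 5 CPM. Those values share library and depth, and for Cish and Socs2 the males had the wider values. For Cish they included Net1 (0.93), Gadd45a (0.92) and Kdelc2 (0.90). Over the 6 males alone the nearest genes included Gadd45a, Irs2 and Tceal8 (0.99 to 1.00). Gadd45a, a growth arrest gene, stood at 20.9, 48.8, 31.6, 36.2, 18.9 and 9.83 CPM in males 1 to 6. From male 2 down to male 6, the order of the males was that of Cish, as the choice by r favours. Irs2, an adaptor of the insulin receptor, ran from 6.12 to 11.4 CPM in males, with male 2 highest and male 6 lowest. Over the 6 females alone they were LOC685909, RT1-CE4, Tecpr1 and Il18bp (0.99 to 1.00).

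For Socs2 the nearest genes were Hhex (0.95), Ankrd24 (0.93), Onecut1 (0.92) and Foxa1 (0.91). Hhex, a homeobox gene of liver development, stood at 55.1, 175, 95.3, 113, 58.6 and 57.8 CPM in males 1 to 6 and at 49.1 to 59.3 in females. Males 2, 3 and 4, the 3 highest for Socs2, were above all females for Hhex, a likeness that the choice by r favours. Foxa1, a pioneer factor gene of liver, ran from 20.5 to 39.7 CPM in males. For Ghr they were Slc10a5 (0.89), Phlpp1 (0.89), Lrp6 (0.88) and Aldh3a2 (0.88). For Stat5b they were Ahr (0.86), Lphn2 (0.84), Ocln (0.83) and Ganc (0.83). For Socs3, among 7544 genes, they were Srd5a1 (0.94), Plbd1 (0.91), Tbc1d8 (0.91) and Map4k2 (0.91). Srd5a1, a steroid 5-alpha-reductase gene, stood at 458 CPM in male 4 and at 118 to 203 in the other males, and at 1293 to 1739 in females.

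Of 6 other JAK and STAT genes tested, Jak1 was higher in females (220 ± 15.9 against 178 ± 16.2 CPM, SD, n = 6 each; 1.24-fold, edgeR adjusted p = 0.00327) and none in males (2 in females without male 1 or male 4), with a median log2 difference of 0.09 over the list against -0.013 over all genes tested. Stat3 stood at 139 and 119 CPM (edgeR adjusted p = 0.171). Of 13 other negative regulators, Socs4 (1.42-fold, edgeR adjusted p = 0.00252) and Pias2 (1.29-fold, 0.00479) were higher in females and none in males, with a list median of 0.02. Without female 9 or male 2, 1 of them was higher in males. The phosphatase gene Ptpn11, at 82.8 and 73.4 CPM, did not pass (edgeR adjusted p = 0.0569), but passed in 8 of 21 alternatives (adjusted p down to 0.0267). With upper quartile factors 4 genes of this list were higher in females.

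Receptors of other cytokines use the same kinases and STATs. Of 10 tested cytokine receptor genes, 4 were higher in females and none in males, beside 20.5% and 22.7% of all genes tested. The list median was 0.19, and 7 were higher in females without male 4. Lifr, the leukaemia inhibitory factor receptor gene, was 104-fold higher in females (edgeR adjusted p = 4.21e-05), Osmr, the oncostatin M receptor gene, 5.11-fold (6.14e-04), and Prlr, the prolactin receptor gene, 4.55-fold (5.67e-05). The means of Lifr were 558 ± 494 CPM in females, a wide spread, and 5.42 ± 1.86 in males (SD, n = 6 each). The means of Prlr were 318 ± 133 CPM in females and 70.0 ± 17.3 in males (SD, n = 6 each). The leptin receptor gene Lepr, which is mutated in the obese animals of this strain, was 3.98-fold higher in females. Il6st, the shared chain of the interleukin-6 family, stood at 215 and 203 CPM (edgeR adjusted p = 0.517).

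Further lists were counted for comparison, beside the same 20.5% of all genes tested higher in females and 22.7% higher in males. Of 13 known targets of growth hormone or STAT5, 4 were higher in females and 5 in males (median log2 -0.24). The largest differences were Cyp2c11 and Hsd3b5, enzymes of steroid metabolism that were 349-fold and 336-fold higher in males, and A1bg, 246-fold higher in females. Cyp2c12, Trim24 and Onecut1 were the other 3 higher in females, at 63.6-fold, 14.2-fold and 3.71-fold, and Cyp4a2, Cyp3a2 and Cyp7b1 the other 3 higher in males, at 18.8-fold, 14.7-fold and 2.49-fold. Of 15 interleukin-6 and acute phase genes, A2m was higher in females (1.43-fold, lost without female 8, 10 or 13 or male 1 or 2) and 9 were higher in males (median -0.62), among them S100a9 (6.15-fold), Orm1 (2.90-fold) and Serpina3n (2.14-fold). Crp, the most abundant of those not called, stood at 4052 and 4572 CPM (edgeR adjusted p = 0.237). Without male 4 the log2 differences of S100a9 and Orm1 fell from -2.62 and -1.54 to -1.14 and -0.61 and stayed called. The call of S100a9 was lost without female 8 or 13 and that of Orm1 without female 7, 12 or 13. The female mean of S100a9, at 0.475 CPM, lay close to the level of 3 counts, so the size of its fold is uncertain. S100a9 also belongs to the neutrophil markers. Of 10 immediate early genes, Egr1 was higher in females (2.13-fold, lost with limma-voom) and 3 were higher in males, Junb at 2.26-fold, Ier2 at 1.52-fold and Zfp36 at 1.38-fold (median -0.39). Dusp1, at 86.2 and 120 CPM, was not called (edgeR adjusted p = 0.370).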

How the data were processed

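Liver RNA of 6 female and 6 male rats was sequenced, with 1 library per animal made with an Illumina TruSeq kit, per the labels' protocols. The deposited values were raw counts of reads per gene, with no normalization. Bowtie2 2.0.2, DESeq and the build rn4 are named in the submitters' processing notes. The counting program, annotation, strand setting and handling of reads with several hits are not given in the sources used here. Hence overlapping or antisense genes and close relatives cannot be told apart. The 5 rows naming no gene (27.1% to 31.7% of counts) were left out.

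The test was the robust quasi-likelihood F test of edgeR 4.0.16 (R 4.3.3; TMM; filterByExpr with minimum count 10 and total 15) over 9943 genes with Benjamini-Hochberg adjustment and a threshold of 0.05. Fold changes are females over males, and each SE was derived from the fold change and its F statistic. CPM are TMM-scaled. Spread and ratios were tested by exact permutation over all 924 assignments, and correlations over all 720 pairings (smallest p 0.00216 and 0.00278). Animals are separate by their labels, and 6 per sex limits precision.

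The genes and lists were chosen with earlier results of these data known. Besides all 8 genes and the outputs Igf1, Igfals, Bcl6 and Onecut1, the text names in each list of pathway genes the 3 called genes of largest fold and the most abundant gene not called, and the 4 genes of highest r, of which 1 is not reported here. Marker lists are given by counts and sums. Single marker genes, Lepr, Zfp36, A2m, the further growth hormone targets other than Onecut1, and the widest genes in males were named after their values were seen. Promoters came from RefSeq, whose symbols matched 15931 (96.7%) of the genes, and no rn4 coordinates are given. Alternatives were other scalings and filters, DESeq2 1.42.0, limma-voom (limma 3.58.1), other prior counts and scales, and leaving out each animal. The procedures were tested on simulated data.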

Additional observations from a re-analysis of the deposited data

Results flagged for a closer look

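Among 22 groups of 6 values, 7 tested genes of the axis and 4 outputs in each sex, 2 held an animal far from the others (Dixon's test on CPM, which flags about 1 in 20 groups by chance). Socs3 in male 4 was 6.14 CPM, while the other males ran from 0.665 to 2.53. Bcl6 in female 12 was 25.9 CPM, while the other females ran from 18.1 to 20.8. That female value lay below those of males 5 and 6.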

How the results depend on the processing

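No paired analysis was possible because the sexes share no animal numbers. Of the counts over the axis genes, their pairs and ratios, and the pathway lists together, 124 of 145 values under another setting stayed within 1.5 times of the reported one, as did 239 of 252 for single lists. The number of axis genes higher in females was 3, or 2 without 1 of the 9 animals named for Jak2. The number with a wider spread in males fell from 3 to 1 with CPM over the mean of the sex and was 1 to 3 with 1 animal left out. Pairs of axis genes with p under 0.05 in females fell from 3 to 1 with library totals and were 1 to 5 with 1 female left out, and in males 0 to 1. Pairs with outputs in females fell from 1 to 0 with library totals (0 to 1 with 1 left out), and in males from 2 to 1 with CPM on the linear scale (1 to 2).

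Signs that turned were of values that had not passed the test. With limma-voom the log2 fold changes of Cish and Socs2 were 0.14 and 0.90. With 1 animal left out they ran from -0.35 to 0.72 for Socs2 and from -0.0016 to 0.14 for Il6st, and without male 4 and female 12 together Socs3 was at 0.0219. The sex difference in deviation, females minus males, turned for Ghr (2.2e-04 with CPM over the mean of the sex, -0.0310 to 0.0422 with 1 animal left out), Jak2 (-0.0990 to 0.0246) and Igf1 (-0.0170 to 0.0799). The r of Ghr with Cish ran from -0.0287 to 0.79 in females (-3.9e-05 with library totals) and from -0.38 to 0.27 in males. That of Socs2 with Socs3 in males ran from -0.23 to 0.23 (-0.0892 with linear CPM), that of Cish with Bcl6 in females from -0.12 to 0.64 (-0.30 with library totals), and that of Cish with Igfals in males from -0.0554 to 0.83. The ratio of Cish to Ghr ran from -0.98 to 0.19 (0.0526 without male 4 and female 12) and that of Socs3 to Cish from -0.76 to 0.17. The cause was not tested. The median log2 fold change of all genes ran from -0.016 to 0.015. Depth limits Socs1 and, in female 9 with 9 counts, Socs3.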

Other observations

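The ratio of feedback gene to receptor gene spanned a wider range among males than among females, a difference that was not tested. The log2 ratio of Cish to Ghr lay between -6.84 and -5.81 in females, and between -9.45 and -3.59 in males. That of Socs2 to Ghr lay between -7.55 and -6.89 in females, and between -9.99 and -5.23 in males. The mean ratios did not differ between the sexes, with differences of -0.32 and 0.60, females minus males (2-sided exact permutation p = 0.732 and 0.489, both 0.779 adjusted over 4 ratios). Gene lengths enter these ratios, so only the differences between animals are read. Adding the feedback genes Cish, Socs1, Socs2 and Socs3 gave 12.1 to 22.9 CPM in females and 2.87 to 82.2 in males.

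Hhex, chosen by its r with Socs2, differed between the sexes by a log2 fold change of -0.71 (edgeR adjusted p = 0.0478). Males 1, 5 and 6 stood at 55.1 to 58.6 CPM, inside the female range of 49.1 to 59.3. Ahr, the gene nearest to Stat5b in pattern, was itself higher in females (log2 1.23, edgeR adjusted p = 6.80e-05), as was Lrp6, near to Ghr (log2 0.97, edgeR adjusted p = 3.39e-04).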
